A study of Homo sapiens with 6 samples.

Results

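The proprotein convertases and the site-1 and site-2 proteases were examined in RNA sequencing data from cells labelled as a human liver cancer line. The group held the 8 genes FURIN, PCSK1, PCSK4, PCSK5, PCSK6, PCSK7, MBTPS1 and MBTPS2, found by symbol among the 27009 genes of the deposited table. All libraries were labelled as Hep3B, a hepatocellular carcinoma line, with its endogenous PD-L1 gene knocked out. The 3 control libraries came from knockout cells with the empty vector, and the other 3 from knockout cells labelled as overexpressing nPD-L1, a PD-L1 mutant that stays in the nucleus. The comparison asked which transcripts differ when this form of PD-L1 is put back. The nPD-L1 sequence sat behind the CMV promoter of a pCDH-CMV-Puro lentiviral vector and was kept in stable cells, so its level was not set by the PD-L1 gene's own promoter. No label says that the replicates were separate cultures, and the p values given for genes outside the group then measure the spread between these samples alone. FURIN was chosen by its measured difference between these 2 groups of libraries, and the other genes by family with their values known. Their values are therefore a description, and no p value is given for them.

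Proprotein convertases are calcium-dependent serine proteases of the subtilisin type. They pass through the secretory pathway and cut precursors after pairs or clusters of basic residues, which releases active growth factors, receptors, adhesion molecules and hormones. FURIN is the broadly expressed convertase of the trans-Golgi network and the cell surface. MBTPS1, the site-1 protease, is a relative of the same fold that cuts at other residues. It works ahead of MBTPS2, the site-2 protease, an intramembrane metalloprotease. In liver cells this pair releases the SREBP regulators of lipid synthesis from the membrane.

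The labels and the libraries were checked first. The deposited values were reads per gene divided by a size factor for the library (scaled reads), and they summed to between 18082164 and 19682128 per library. CD274, which encodes PD-L1, was at 28.3, 38.4 and 47.8 scaled reads with the vector, against 16.8, 19.2 and 30.9 in those labelled nPD-L1, so it was not higher where it had been introduced (log2 fold change −0.76, adjusted p = 0.338, limma). Every direction below rests on the labels. Of 7 hepatocyte and hepatoma markers with a value, FGB and APOH were expressed and SERPINA1 was at 7.91 to 41.4 scaled reads. ALB, APOA1 and APOB were between 0 and 2.02 in every library. These 3 defining hepatocyte transcripts were thus at or near 0, against the liver label, and the line is named here by its label alone. The sum over these 7 markers was 1150 to 1869 with the vector, against 1203 to 1352 in the libraries labelled nPD-L1. HNF4A, a hepatocyte transcription factor, rose from 12.2 to 45.5 scaled reads (log2 fold change 1.91, adjusted p = 0.0232, limma). AFP, GPC3, CD3E, CD68 and CDH5 were not analysed here. Of 6 markers of other cells with a value, PTPRC, PECAM1 and DCN stayed at or below 5.04. CHGA at 26.2 to 62.7 and SYP at 52.1 to 75.9 over the libraries were not called (adjusted p = 0.726 and 0.758, limma). COL1A1, a collagen of fibroblasts, rose from 65.3 to 466 (log2 fold change 2.84, adjusted p = 8.0e-06, limma). The sum over these 6 went from 136 to 180 up to 555 to 625, a rise that was mostly COL1A1. The part of HNF4A and COL1A1 in the results below was not tested, and in such bulk samples a change in the mix of cells cannot be told apart from a change in RNA per cell.

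FURIN was the member that stood apart between the groups. It was counted at 1273, 1457 and 1286 scaled reads in vector replicates 1, 2 and 3, and at 5301, 5295 and 4864 in replicates 1, 2 and 3 labelled nPD-L1. Each library labelled nPD-L1 was above each vector library, and the values within a group lay close together. The means were 1338 ± 103 and 5153 ± 251 (SD, n = 3 each), a 3.85-fold ratio. On the log2(scaled reads + 1) scale the difference was 1.95 with a standard error of 0.10 and a 95% interval of 1.73 to 2.16. Taken with its sign, this difference was larger than that of 99.1% of the 15076 genes tested. Those genes were the ones that reached 10 scaled reads in 3 or more libraries. FURIN was chosen by this difference, so its rank is a description. The difference stayed between 1.89 and 2.01 under all 17 alternative settings, which reuse the same libraries. The mean level of FURIN exceeded that of 93.1% of the genes tested, and its spread between replicates, a pooled SD of 0.09 on the log2 scale, was below the median of 0.20 over those genes.

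**Figure D1:**
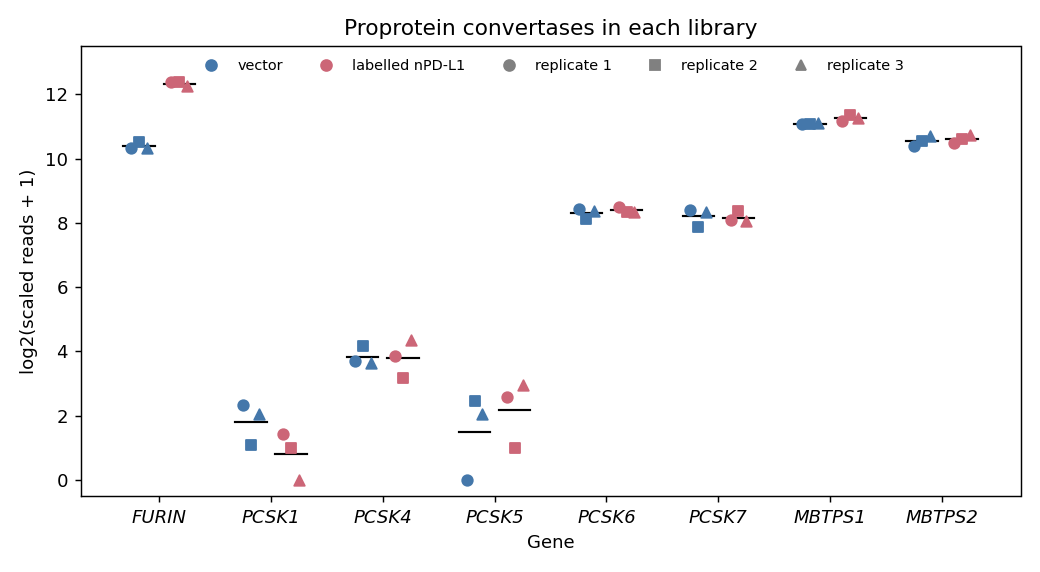
Log2(scaled reads + 1) of the 8 genes in each of the 6 libraries, with symbols for replicate numbers and bars for group means. FURIN separates the groups by 1.95 on this scale, MBTPS1 by 0.18, and the symbols of PCSK4, PCSK6, PCSK7 and MBTPS2 overlap between groups.

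FURIN (ENSG00000140564) spans bases 90868592 to 90883458 of chromosome 15 (GRCh38, + strand). The GENCODE release 29 annotation gives it 8 transcripts with 7 distinct starts, and its principal transcript has 16 exons. The deposited values are per gene, so they do not tell which start was used. RefSeq (GRCh38.p14) lists 4 start regions, each taken here as 300 bases that run from upstream of the start into the transcript. They are shown 5′ to 3′ because FURIN carries the result and because its starts differ in base composition, with CAGAC or its reverse complement GTCTG, the SMAD-binding element, in capitals.
FURIN start 1, chr15:90868338-90868637: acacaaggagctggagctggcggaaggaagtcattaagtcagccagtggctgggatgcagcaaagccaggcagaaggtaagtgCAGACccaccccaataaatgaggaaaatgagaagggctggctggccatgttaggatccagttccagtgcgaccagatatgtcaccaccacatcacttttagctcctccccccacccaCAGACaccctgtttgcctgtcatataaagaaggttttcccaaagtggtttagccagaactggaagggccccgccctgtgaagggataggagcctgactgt
FURIN start 2, chr15:90871290-90871589: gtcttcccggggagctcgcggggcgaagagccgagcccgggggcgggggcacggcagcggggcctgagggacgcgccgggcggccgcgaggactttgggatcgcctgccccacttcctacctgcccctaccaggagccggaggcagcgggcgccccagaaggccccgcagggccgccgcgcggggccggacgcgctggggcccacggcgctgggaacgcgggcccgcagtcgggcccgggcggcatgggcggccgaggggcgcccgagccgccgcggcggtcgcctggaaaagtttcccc
FURIN start 3, chr15:90871918-90872217: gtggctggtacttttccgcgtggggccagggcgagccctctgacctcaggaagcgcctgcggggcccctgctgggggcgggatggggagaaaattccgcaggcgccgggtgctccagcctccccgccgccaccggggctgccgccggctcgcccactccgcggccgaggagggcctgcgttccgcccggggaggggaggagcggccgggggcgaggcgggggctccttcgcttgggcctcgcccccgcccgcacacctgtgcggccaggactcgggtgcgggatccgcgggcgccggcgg
FURIN start 4, chr15:90872604-90872903: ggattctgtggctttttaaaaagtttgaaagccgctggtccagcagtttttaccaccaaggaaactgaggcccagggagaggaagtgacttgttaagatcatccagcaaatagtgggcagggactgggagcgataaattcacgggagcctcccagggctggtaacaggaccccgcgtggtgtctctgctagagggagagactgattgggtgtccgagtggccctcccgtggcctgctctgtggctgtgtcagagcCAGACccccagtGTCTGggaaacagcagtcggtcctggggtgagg
The first and the fourth region, with 53.3% and 56.7% G and C, each held 2 matches to CAGAC on either strand. The second and the third, with 80.3% and 78.3% G and C, held none. They held 4 and 3 matches to the GC box GGGCGG, against 1 in the first region and 0 in the fourth. The median over 35116 RefSeq start regions of the same length was 58.7% G and C. CAGAC was present in 45.3% of these regions and GGGCGG in 45%. TGANTCA, the AP-1 site, was found in 7.71% of all regions and in none of the 12 regions of the 8 genes. TCACNCCAC, a sterol element, was found in 1.13% of all regions and likewise in none of the 12. A match or its lack here is a count of letters and not a binding site.

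The convertases PCSK6 and PCSK7, which also act in the secretory pathway of many tissues, were expressed at lower levels and did not separate the groups. PCSK6, also called PACE4 (chromosome 15, 101297142 to 101525202, − strand), was at 341, 278 and 329 scaled reads with the vector, against 361, 320 and 323 in those labelled nPD-L1. The groups overlapped, and the log2 difference was 0.09 with a 95% interval of −0.21 to 0.38. PCSK7 (chromosome 11, 117204337 to 117232525, − strand) was at 338, 234 and 323 with the vector, against 270, 328 and 263 in those labelled nPD-L1. Vector replicate 2 was the lowest of the 6 and vector replicate 1 the highest. The log2 difference of PCSK7 was −0.04, with an interval of −0.42 to 0.33. These intervals leave out a change of the size seen in FURIN in either direction.

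PCSK4, a convertase known from germ cells, was near the limit of what was tested (chromosome 19, 1481428 to 1490752, − strand). It was counted at 12.1, 16.9 and 11.4 scaled reads with the vector, against 13.4, 8.09 and 19.3 in those labelled nPD-L1. The extremes both fell in the second group, and the interval of its log2 difference, −1.02 to 0.93, was wide. The 2 remaining convertases did not reach the minimum value in enough libraries and were not tested. PCSK1, the prohormone convertase of endocrine cells, was at 4.04, 1.13 and 3.12 with the vector, against 1.68, 1.01 and 0 in those labelled nPD-L1. PCSK5, a convertase of secreted and membrane proteins, was at 0, 4.52 and 3.12 and at 5.04, 1.01 and 6.75. Whole reads could be recovered in 4 libraries, where PCSK1 had between 0 and 3 reads and PCSK5 between 3 and 7. No fold is given for these 2 genes, since a difference was not detectable at this depth.

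MBTPS1 was the only other member whose groups did not overlap, a trait in the higher direction of 12.0% of all genes tested. The gene (chromosome 16, 84053761 to 84116906, − strand) was at 2162, 2168 and 2196 scaled reads with the vector, against 2320, 2619 and 2463 in those labelled nPD-L1. The vector values lay close together, and the lowest library of the other group exceeded the highest vector library. The log2 difference was 0.18 with a standard error of 0.09 and an interval of −0.03 to 0.39, and it was positive under all 17 alternatives. MBTPS2 (chromosome X, 21839636 to 21885424, + strand) was at 1352, 1477 and 1664 and at 1440, 1543 and 1715. The libraries of both groups interleaved, and the log2 difference was 0.07 with an interval of −0.18 to 0.32. The site-1 and site-2 proteases thus had log2 differences of under 0.20, while that of FURIN was 1.95.

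Counted over the group, 6 of 8 genes reached the minimum value. As a description and not as a test of these genes, FURIN alone was on the called side of the threshold used for all genes (adjusted p under 0.05, limma), in the higher direction, where 4.04% of all genes tested lay. None of the 6 was past it in the lower direction, against 0.922% of all genes, and 4.96% of all genes were past it in either direction. FURIN and MBTPS1 had no overlap between groups in the higher direction, as did 12.0% of all genes, and no member did in the lower direction, where 8.54% of all genes did. The median log2 difference of the 6 was 0.08, and that of all genes tested was −0.02. Under the alternatives the log2 difference ranged from −0.32 to 0.26 in PCSK4, from −0.21 to 0.05 in PCSK7, from −0.0045 to 0.18 in PCSK6 and from −0.0053 to 0.14 in MBTPS2, so its sign was not settled in these 4 genes. Because the genes were chosen with this contrast known, nothing is read from these counts.

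**Figure D2:**
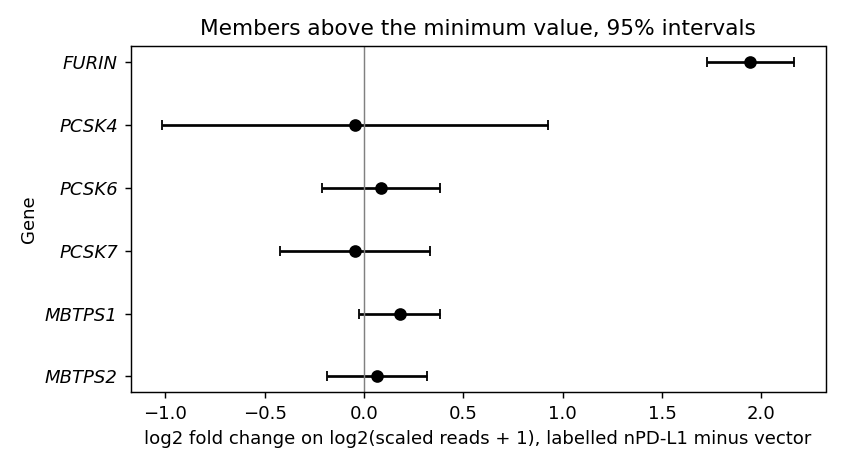
Log2 fold change, libraries labelled nPD-L1 minus vector libraries, of the 6 genes above the minimum value, with 95% intervals from limma. The interval of FURIN runs from 1.73 to 2.16, and those of the other 5 genes include 0.

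Levels of different genes were compared per kilobase of the deposited gene length. In the vector libraries FURIN was highest at 283 ± 21.7 scaled reads per kilobase, followed by MBTPS1 at 212 ± 1.76 and MBTPS2 at 168 ± 17.6 (SD, n = 3). PCSK6 at 23.9 ± 2.55 and PCSK7 at 13.4 ± 2.53 came next, and PCSK4 at 3.56 ± 0.79 was above PCSK1 and PCSK5, which did not differ beyond their spread. In the libraries labelled nPD-L1, FURIN reached 1090 ± 53.0 per kilobase, and MBTPS1 and MBTPS2 were at 241 ± 14.6 and 175 ± 15.6. The order in the vector libraries depended on the length used. With the length of the principal transcript, MBTPS1 came first at 501 ± 4.15, and MBTPS2 at 338 ± 35.5 and FURIN at 308 ± 23.7 did not differ beyond their spread. Neither did PCSK6 at 71.7 ± 7.64 and PCSK7 at 64.2 ± 12.1. With this length FURIN was again first in the libraries labelled nPD-L1, at 1186 ± 57.7 against 569 ± 34.4 for MBTPS1.

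The summed level of the 7 subtilisin-like members, all but MBTPS2, went from 537 ± 16.9 to 1373 ± 55.2 scaled reads per kilobase. Without FURIN the sum was 254 ± 5.02 and 283 ± 13.4. FURIN made up 51.3%, 55.4% and 51.3% of the sum in vector replicates 1, 2 and 3, and 80.6%, 79.0% and 78.5% in replicates 1, 2 and 3 labelled nPD-L1. The share of MBTPS1 went from a mean of 39.6% to 17.6%, and that of PCSK6 from 4.46% to 1.84%, although neither had fewer scaled reads. With principal transcript lengths the mean share of FURIN was 32.4% and 62.5%, so its rise in share did not depend on the length while its size did. These shares are of RNA and carry counting and length error. They do not measure enzyme activity.

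**Figure D3:**
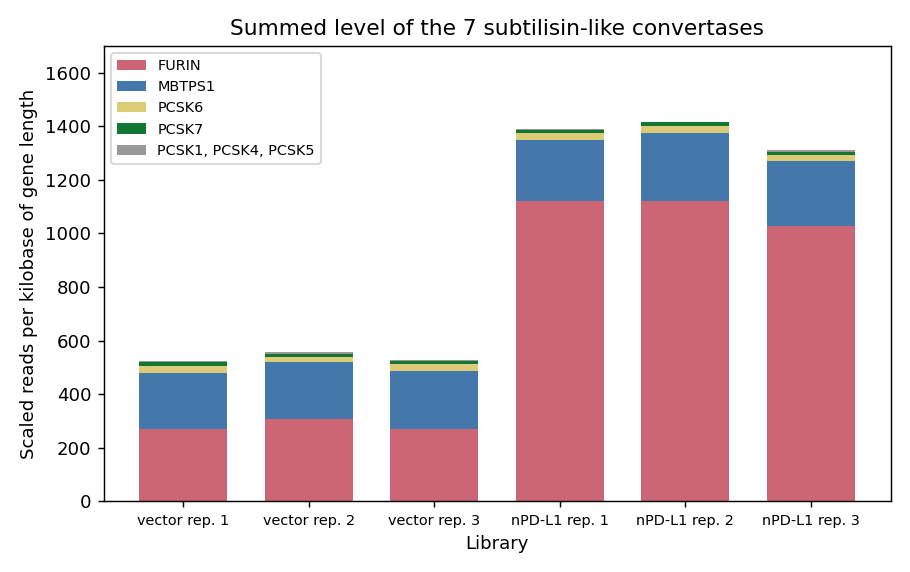
Stacked scaled reads per kilobase of gene length of the 7 subtilisin-like members in each library, with colours for genes. The column height is near 537 in the vector libraries and near 1373 in the libraries labelled nPD-L1, and the FURIN segment holds most of the difference.

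The genes beside FURIN were examined next. Upstream, BLM, a DNA helicase gene 52427 bases away, had a log2 fold change of 0.16 (adjusted p = 0.645, limma), and CRTC3, a CREB coactivator 223247 bases away, had 0.34 (adjusted p = 0.32). Downstream, FES, a tyrosine kinase that lies 237 bases from the end of FURIN, was at −0.23 (adjusted p = 0.636). MAN2A2, a Golgi mannosidase 18760 bases away, was at 0.35 (adjusted p = 0.629). Within 500 kb on either side, 12 other genes were tested, and limma called 0 of them, where 4.96% of all genes were called, so a count of 0 among 12 does not set the region apart. At an unadjusted p under 0.05, 1 was higher and 1 lower, and edgeR and DESeq2 on 4 libraries called 0. The share of all genes at that unadjusted threshold was not counted. Their log2 fold changes ran from −0.48 to 0.61, all below that of FURIN.

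**Figure D4:**
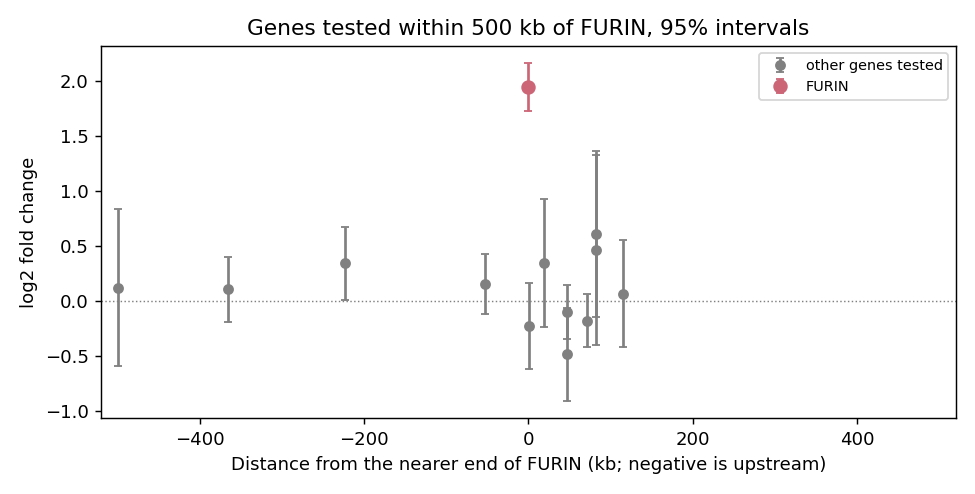
Log2 fold change with 95% intervals of the 12 other genes tested within 500 kb of FURIN, against distance in kilobases from the nearer end of FURIN. FURIN is at 1.95 and the others lie between −0.48 and 0.61.

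The library kit does not mark strand, so reads from genes that overlap a member cannot be told apart from reads of that member. FURIN overlapped no other gene of the table. PCSK7 shares 446 bases with TAGLN, an actin-binding protein gene on the other strand, which had 24.2, 14.7 and 28.1 scaled reads with the vector, against 28.6, 46.5 and 73.3 in those labelled nPD-L1 (log2 fold change 1.06, adjusted p = 0.211, limma). PCSK4 shares 6 bases with REEP6, which was at −0.03 (adjusted p = 0.972), and MBTPS2 contains YY2, also at −0.03 (adjusted p = 0.975). PCSK6 overlaps 5 genes, of which AC023024.1 and AC023024.2 were tested, with log2 fold changes of 1.72 and −0.26 (adjusted p = 0.402 and 0.824) at means of at most 14.1 scaled reads. PCSK1, PCSK5 and MBTPS1 each overlap 1 gene too low to be tested.

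The genes whose pattern over the 6 libraries was most like that of FURIN were taken by Pearson's r on the log2 scale over the 10724 genes whose mean reached 100. They were JUNB (r = 0.9997), a subunit of AP-1, BAMBI (0.9989), a decoy receptor of TGF-β signalling, LBH (0.9986), NXPH4 (0.998) and HEY1 (0.9975), a Notch target. JUNB went from 630, 778 and 572 scaled reads to 17207, 17283 and 14109, a log2 fold change of 4.62. BAMBI went from 329, 364 and 345 to 1167, 1257 and 1131, a log2 fold change of 1.77, close in size to that of FURIN. LBH, NXPH4 and HEY1 were at 3.85, 3.62 and 3.48. With 3 libraries a group, such r values mostly reflect the gap between the groups. As in FURIN, replicate 2 was the highest vector library of each of the 5, but a choice by r favours such a match.

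The precursors that convertases cut were counted in 3 lists of genes, chosen like the group itself with earlier results of these data known. The p values and counts of these lists, and of the lists of partners after them, are therefore a description. They are not independent support for a difference in these genes. Among secreted growth factors and hormones, 19 of 23 genes with a value were tested, of which 3 rose and 3 fell in limma. Over all genes tested, 4.96% were called in either direction, and the list's median log2 fold change was −0.16 against −0.02 over all genes. PDGFB, the B chain of platelet-derived growth factor, rose from 29.3, 27.1 and 48.8 scaled reads to 1595, 1754 and 1529 (log2 fold change 5.54 ± 0.21 SE, adjusted p = 2.3e-07). Its partner chain PDGFA rose by 2.33 ± 0.19 (adjusted p = 3.1e-05), and BMP2, a bone morphogenetic protein, by 2.17 ± 0.29 (adjusted p = 0.0013). BDNF, a neurotrophin, went from 443, 372 and 266 to 110, 100.1 and 111 scaled reads and fell by 1.71 ± 0.19 on the log2 scale (adjusted p = 0.00034). GDF15, a stress-induced cytokine of the TGF-β family, fell by 1.28 ± 0.17 (adjusted p = 0.0013). VEGFC, a lymphatic growth factor, fell by 0.71 ± 0.13 (adjusted p = 0.0094), but its adjusted p was 0.0588 without replicate 1 labelled nPD-L1 and 0.0656 without replicate 3, and on 4 libraries it was 0.0575 in edgeR, 0.0550 in limma and 0.0218 in DESeq2. TGFB1, a classical substrate of FURIN, named after its value was seen, was at 0.39 with an adjusted p of 0.166. IGF1, FGF23 and NPPB were not analysed here.

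Among membrane proteins with a convertase site, 27 of 27 genes were tested. NOTCH1, a receptor cut on its way to the surface, was the 1 gene that rose, from 453, 259 and 479 to 1632, 1445 and 1419 scaled reads (log2 fold change 1.96 ± 0.20 SE, adjusted p = 2.0e-04, limma). No gene fell, and none passed an unadjusted p under 0.05 in that direction or a call with edgeR and DESeq2 on 4 libraries. Of all genes tested, 4.04% were called higher. At an unadjusted p under 0.05, 9 of the 27 were higher. The share of all genes at that threshold was not counted, so nothing is read from the 9. In the higher direction 10 had no overlap between groups and in the lower 1, against 12.0% and 8.54% of all genes. The list's median log2 fold change was 0.15. The count became 2 without vector replicate 2 and 3 without vector replicate 3. The 2 genes of the list with the most scaled reads, the integrin ITGA3 and the receptor kinase MET, were at 0.03 and 0.22 (adjusted p = 0.951 and 0.594).

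Among plasma and other secreted proteins with a convertase site, 7 of 17 genes with a value reached the minimum and the other 10 lay below it. Of the 7, 1 rose, where 4.04% of all genes did. ANGPTL4, an inhibitor of lipoprotein lipase that convertases cut, rose from 359, 377 and 424 to 4322, 2966 and 3049 scaled reads (log2 fold change 3.13 ± 0.15 SE, adjusted p = 7.3e-07, limma). C5, a complement component, was at 0.03 (adjusted p = 0.936). No gene fell, and none passed an unadjusted p under 0.05 in that direction or a call with edgeR and DESeq2 on 4 libraries, and the median of the 7 was 0.21. F9 and HJV were not analysed here.

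The factors that the site-1 and site-2 proteases release, with their escorts, were 14 genes, of which 13 were tested. C12orf49, now called SPRING1, which binds SCAP and the site-1 protease, was at 1100, 1150 and 1102 scaled reads with the vector, against 1391, 1775 and 1459 in those labelled nPD-L1 (log2 fold change 0.46 ± 0.11 SE, adjusted p = 0.0437, limma). It was the 1 gene called, where 4.04% of all genes were called higher. Its adjusted p ranged up to 0.258 with 1 library left out, past 0.05 in 5 of those 6 fits, and it was 0.702 in edgeR and 1.0 in DESeq2 on 4 libraries. SREBF1 and SREBF2, which encode the lipid regulators themselves, were at 0.55 and 0.28 (adjusted p = 0.456 and 0.561). SREBF1 varied widely, from 4732 to 11212 scaled reads in the vector libraries and from 8279 to 13217 in the libraries labelled nPD-L1. No gene fell in limma, edgeR or DESeq2 or at an unadjusted p under 0.05.

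Of inhibitors of convertases, proteins that sort them and enzymes that trim the cut ends, 16 of 17 genes were tested and SCG5 fell, where 0.922% of all genes did. SCG5 encodes 7B2, the partner of the endocrine convertase PCSK2, and was at 49.5, 79.1 and 34.3 scaled reads with the vector, against 12.6, 18.2 and 23.2 in those labelled nPD-L1 (log2 fold change −1.50 ± 0.37 SE, adjusted p = 0.0437, limma). This call also held in 1 of 6 fits with a library left out, that without vector replicate 3, and the adjusted p was 0.322 in DESeq2 on 4 libraries. FLNA, an actin cross-linker that anchors FURIN, was at 0.07 and CPD, a carboxypeptidase that trims the basic residues FURIN leaves, at 0.19 (adjusted p = 0.919 and 0.495). No gene of this list rose in limma, edgeR or DESeq2 or at an unadjusted p under 0.05, and the list's median was −0.03.

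**Figure D5:**
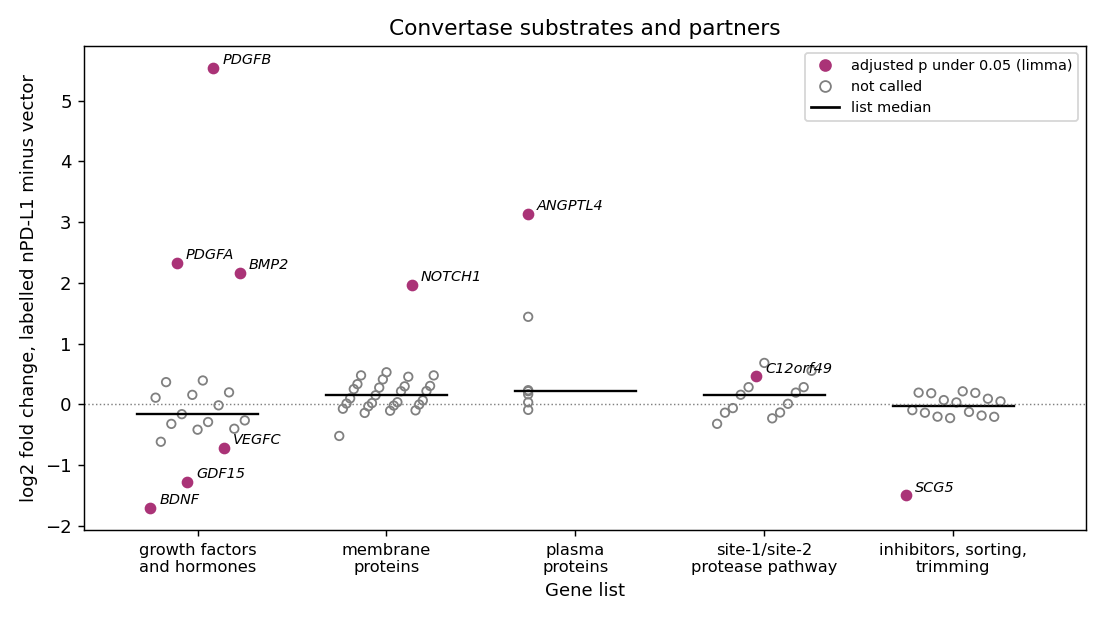
Log2 fold change, libraries labelled nPD-L1 minus vector libraries, of the genes tested in 5 lists of substrates and partners, with filled points for an adjusted p under 0.05 (limma) and bars for list medians. The growth factor list has called genes on both sides, from PDGFB at 5.54 to BDNF at −1.71, and the other 4 lists have 1 each.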

How the data were processed

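RNA sequencing by a company covered 6 libraries labelled Hep3B, all with PD-L1 knocked out, grouped by their titles. The submitters' processing notes list CASAVA, HISAT2 2.0.5 and hg38. The counter and the annotation are not given in the sources used here, and the coordinates of the 8 genes equal those of GENCODE release 29. The authors' deposited values are a signal, reads per gene divided by a library size factor, but the table calls them raw. The authors' deposited gene length, used for levels per kilobase, is of another kind. Their columns of group means, fold changes and p values were not used. Values were whole multiples of a step (100%, tolerance 0.1) in all 6 libraries. In vector replicate 1 and in replicate 2 labelled nPD-L1 the step was too close to 1 for whole reads to be accepted. Whole reads were therefore taken in 4 libraries, with 17427519 to 22253295 reads.

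limma 3.58.1 (R 4.3.3; eBayes with trend and robust moderation) was run on log2(value + 1) for the 15076 genes that reached 10 in 3 or more libraries, with Benjamini-Hochberg adjusted p under 0.05 as the call. The added 1 understates changes of low genes. Intervals are 95% and cover the spread between libraries. edgeR 4.0.16 and DESeq2 1.42.0 were run on the recovered reads of the 4 libraries. Scripts were tested on simulated data. There limma on 6 libraries called 74.6% of the larger changes put in and 8.57% of the smallest ones. A gene that was not called can therefore still differ. Other scalings, filters, pseudocounts, moderation, a replicate block and each library left out were tried, with other lengths added after the data were seen.

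The members and lists were chosen with earlier results of these data known. Apart from the cell markers, genes with a value were named by rule, except TGFB1, which was added after its value was seen. The rule took the 8 members, CD274, the 2 nearest tested genes on each side of FURIN, genes overlapping a member, and the 5 genes most like FURIN. In each list it took the genes called or, where fewer than 2 were, also the 2 with the highest mean.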

Additional observations from a re-analysis of the deposited data

How the results depend on the processing

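The depth limited PCSK1, PCSK4 and PCSK5, and the spread among 3 libraries a group limited the rest. Leaving out 1 library moved the genes called higher from 609 to between 331 and 791, those called lower from 139 to between 76 and 242, membrane proteins higher from 1 to between 1 and 3, the site-1 and site-2 list higher from 1 to between 0 and 1, and inhibitors and partners lower from 1 to between 0 and 1. On 4 libraries, edgeR, DESeq2 and limma gave 248, 314 and 229 genes higher and 52, 83 and 52 lower, and 0 calls in each of the last 2 lists, with fewer samples by construction. Upper-quartile scaling gave 0 site-1 and site-2 genes, and no filter gave 3 membrane proteins. The share of FURIN became 32.4% and 62.5% with principal lengths and 32.3% and 62.4% with no length. The sign of some genes near 0 turned, and the cause was not tested: C5 (−0.021) and ITGA3 (−0.019) under upper-quartile scaling, YY2 at 0.084, 0.079 and 0.15 in edgeR, DESeq2 and limma on 4 libraries. With 1 library left out, C5 ranged from −0.078 to 0.11, ITGA3 from −0.17 to 0.18, FLNA from −0.22 to 0.30, MAN2A2 from −0.030 to 0.61, REEP6 from −0.37 to 0.25 and YY2 from −0.36 to 0.14. Another 483 values of named genes outside the group, and all 17 of CD274, kept their direction and side of the threshold. Of the other values of these named genes, 21 lost a call in the same direction and 20 turned in sign. Of the values of the group, 90 kept their sign and 11 did not. Among counts and shares, 182 stayed within their limits (1.5-fold for counts) and 42 moved past them.

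No label says that same-numbered replicates belong together, and whether they shared a batch was not tested. The correlations of the deviations of same-numbered replicates were −0.013, 0.23 and 0.13. Those of the other pairs ran from −0.22 to 0.079. With the replicate number as a block, 927 genes were called higher and 258 lower, and 5 membrane proteins were called higher.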
